A study of Mus musculus with 9 samples.

Results

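Neurons of the embryonic mouse cortex were compared with the proliferating progenitors of the same tissue over all genes of the deposited table. The members were taken by their labels, as the 3 libraries sorted as neurons and the 3 libraries sorted as proliferating progenitors, which are 6 of the 9 libraries in the series. No measured value entered that choice. Of the 21210 genes in the table, 15828 reached a normalised read count of 10 in at least 3 libraries and were tested.

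The tissue was the lateral cortex of C57BL/6 embryos at embryonic day 14.5, with the meninges and the ganglionic eminences taken off before the cells were dissociated and sorted. Every group carried reporters of both Btg2, an antiproliferative gene that marks neurogenic divisions, and Tubb3, a beta tubulin of neurons. Proliferating progenitors were the cells negative for the Btg2 reporter and neurons the cells positive for the Tubb3 reporter. Differentiating progenitors, positive for the Btg2 reporter, form the remaining 3 libraries. They shared in the estimate of the spread and are shown beside the 2 groups compared. Sample titles speak of RFP for the Btg2 gates and the genotype label of GFP for either gene, so the labels do not settle the colours. Each library came from a pool of sorted cells from more than 3 embryos of different litters, and p-values measure the spread between such pools. The proliferating gate is defined by the absence of a signal, so that it can hold any cell without the reporter.

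At this age the progenitors of the cortex are mostly radial glia, long cells that line the ventricle, divide there and serve as the scaffold on which neurons migrate. Notch signalling and the factors Pax6, Sox2 and Hes1 or Hes5 are known to keep them dividing. A newborn neuron leaves the cell cycle, detaches from the ventricular surface, migrates to the cortical plate, and starts to build an axon and synapses. The first neurons laid down are Cajal-Retzius and deep-layer cells, and inhibitory neurons enter the cortex from the ganglionic eminences.

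Of the genes behind the sort, Tubb3 stood on the side that the labels require, while for Btg2 they set no side between these groups. Btg2 had means of 8440 in proliferating progenitors, 16213 in differentiating progenitors and 3111 in neurons. Tubb3 was 26.6-fold higher in neurons (log2 change 4.80 ± 0.25, SE; limma adjusted p = 2.63e-07) and Btg2 was 2.71-fold lower (log2 change -1.44 ± 0.17, adjusted p = 5.54e-05); as gate genes they are no findings. Both gate genes stay in list counts below, Tubb3 among pan-neuronal and tubulin genes and Btg2 among cell cycle exit and immediate early genes. Normalised totals were 17531558 to 18201880 in proliferating progenitors and 21442620 to 22076409 in neurons, a ratio of the group means of 1.22. The reads behind them were estimated at 12649019 to 27573435 a library. Replicate 1 stood apart from replicates 2 and 3 in both groups. On principal component 2, which held 11.6% of the variance, the replicate 1 libraries lay at 61 and 60.7 and the other 4 libraries between -31.3 and -25. The pseudogene share of the total was 2.481% for progenitor replicate 1 and 1.758% for neuron replicate 1, while the remaining 4 lay between 0.498% and 0.707%. The group difference itself lay on component 1, which held 75.1% of the variance.

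Genes of cells outside the neural lineage held a larger share of the total in the proliferating progenitor libraries than in neurons, most of all those of red blood cells. Red blood cell genes held 1.48%, 0.570% and 0.671% of the total in the 3 progenitor libraries and 0.000920% to 0.00137% in neurons. Of 13 red blood cell genes tested, 12 fell and 0 rose, with a median log2 change of -7.06, where 31.1% of all genes tested fell and 32.2% rose. Endothelial and mural genes held 0.0762% to 0.102% against 0.0126% to 0.0136%, and 17 of 20 tested fell. Microglial genes held 0.00286% to 0.00349% against 0.000732% to 0.000815%, and 8 of 9 fell; Csf1r, the receptor for colony stimulating factor 1, was measured at 119, 108 and 101 in progenitors and at 25, 26 and 22 in neurons. Meningeal genes held 0.00262%, 0.00500% and 0.0187% against 0.000745% to 0.000984%, and 5 of 8 fell. Col1a2, a fibrillar collagen, was at 58, 199 and 712 in progenitors 1, 2 and 3, so the third library held most of it. The meningeal members Islr, Col15a1 and Crabp2 did not pass, and Islr had the higher mean in neurons (45.0 ± 9.54 against 31.3 ± 15.3). No member of these lists was at 0 in all 6 libraries, although several were at 0 in all 3 neuron libraries, among them Ogn, Foxd1, Tyrobp, Acta2 and Rhag. Several endothelial and mural markers, such as Notch3 and Sparc, are also known from radial glia. Notch3 and Sparc had the highest progenitor means of that list, at 8718 and 2354 against 76.7 and 18.7 in neurons. The share of that list therefore does not stand for endothelial and mural cells alone. How far cells outside the neural lineage contribute to falls of other genes was not tested.

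More than 6 in 10 of the genes tested differed between neurons and their progenitors, in nearly equal numbers each way. In limma with Benjamini-Hochberg adjustment, 10023 of 15828 genes passed (63.3%), 5099 higher in neurons (32.2%) and 4924 lower (31.1%). The median log2 change was 1.22 among genes that rose and -1.44 among genes that fell, beside -0.02 over all genes tested. Changes of at least 2-fold were found for 6209 genes (39.2%), 3023 that rose (19.1%) and 3186 that fell (20.1%), and at least 8-fold changes for 1000 (6.32%) and 1114 (7.04%). The libraries of the groups did not overlap for 10706 genes (67.6%). With the replicate number as a block, 12374 genes passed (78.2%), 6129 higher (38.7%) and 6245 lower (39.5%), and 10022 of the 10023 calls were among them in the same direction.

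The balance of rises and falls depends on how the libraries are scaled. When all library totals were set equal, log2 changes moved by -0.28, and 3903 genes rose (24.7%) and 6607 fell (41.7%). Rises then made up 37.1% of the calls instead of 50.9%. All 4924 falls remained, and 0 of the rises turned into falls. Without replicate 1 of any group, 5531 genes rose and 5475 fell.

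**Figure D1:**
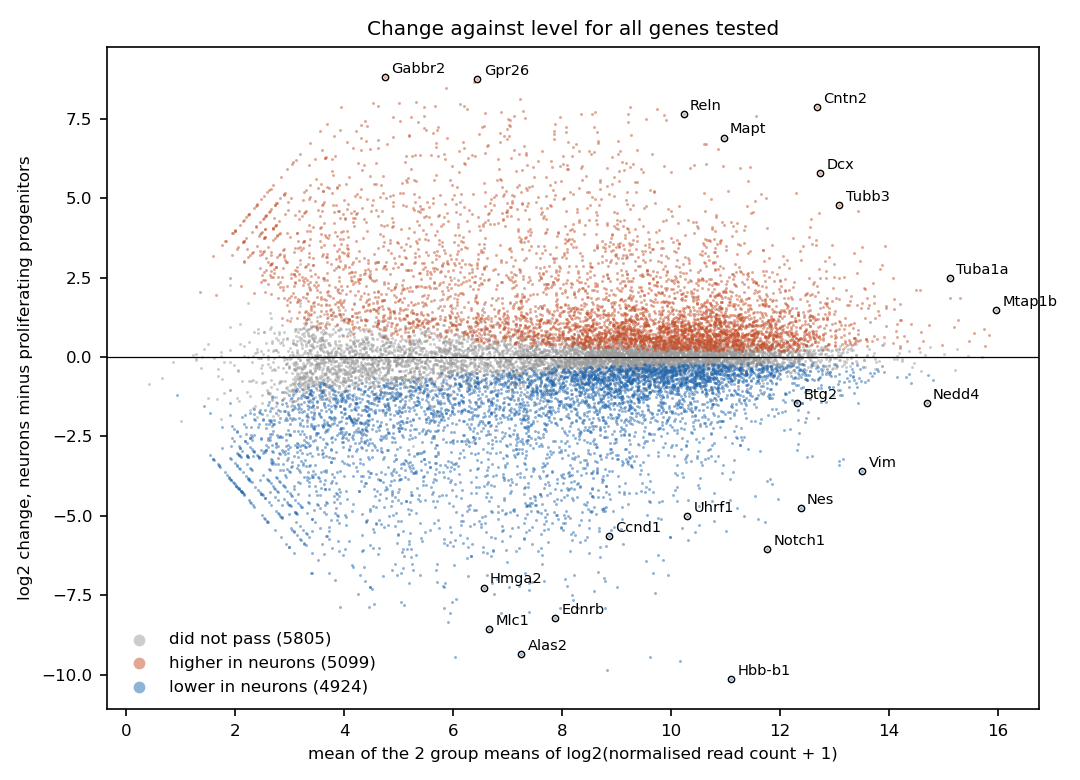
Each point is a gene tested, with its mean level of log2(normalised read count + 1) across the 2 groups on the x axis and its log2 change, neurons minus proliferating progenitors, on the y axis. The 5099 genes that rose and the 4924 that fell spread to about the same distance from 0, and the haemoglobin gene Hbb-b1 lies lowest.

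The cell cycle genes fell almost without exception. All 55 genes of the G1/S transition and of DNA replication fell, with a median log2 change of -3.31, and 68 of 69 genes of G2 and mitosis fell, with a median of -4.48. The remaining mitotic gene, the checkpoint protein Bub3, had a log2 change of -0.33 ± 0.14 (adjusted p = 0.0644) and fell with the replicate block. Together the G1/S genes held 0.644% to 0.808% of the total in progenitors and 0.0704% to 0.0755% in neurons, and the G2/M genes 0.874% to 1.09% against 0.0617% to 0.0781%.

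Promoters of these genes are shown because the members fell together and carry different sequence words. In G2/M genes the cell cycle homology region (CHR), TTTGAA, is known as the contact of the MuvB complex, which works with Mybl2 and Foxm1. Replication genes are known as targets of E2F factors. The sequences are from RefSeq, on build GRCm38.p6. Each is the 110 bases before the start of the gene, 5′ to 3′ on the strand of the gene. Capitals mark the CHR and CCAAT words on either strand in the first 3 and the E2F-like word in the last 3. Members were taken in order of adjusted p, leaving out those on a chromosome set aside from printing. Those without the CHR word (G2/M) or an E2F-like word (G1/S) in the 110 bases were passed over. Each printed promoter thus carries its word by choice.
Cdc20: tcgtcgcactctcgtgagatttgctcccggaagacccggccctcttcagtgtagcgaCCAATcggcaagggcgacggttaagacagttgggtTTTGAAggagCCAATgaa
Ube2c: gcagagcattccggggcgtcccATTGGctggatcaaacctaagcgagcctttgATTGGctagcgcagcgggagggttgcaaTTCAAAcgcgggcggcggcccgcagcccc
Ncapg: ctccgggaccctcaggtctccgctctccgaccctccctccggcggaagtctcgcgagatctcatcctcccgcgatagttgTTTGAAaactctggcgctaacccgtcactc
Uhrf1: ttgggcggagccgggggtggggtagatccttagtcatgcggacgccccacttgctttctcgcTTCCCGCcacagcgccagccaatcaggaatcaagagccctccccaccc
Rpa2: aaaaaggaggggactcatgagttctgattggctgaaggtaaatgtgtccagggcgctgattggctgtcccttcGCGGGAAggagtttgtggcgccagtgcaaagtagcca
Rrm1: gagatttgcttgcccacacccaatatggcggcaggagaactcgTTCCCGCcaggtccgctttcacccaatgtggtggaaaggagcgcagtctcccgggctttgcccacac

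These stretches lie at chr4:118437344-118437453 (minus strand) for Cdc20, chr2:164769819-164769928 (plus) for Ube2c and chr5:45669815-45669924 (plus) for Ncapg. Those of Uhrf1, Rpa2 and Rrm1 lie at chr17:56303227-56303336, chr4:132768250-132768359 and chr7:102441585-102441694, all on the plus strand. The CHR word starts 18, 29 and 30 bases before the gene start in Cdc20, Ube2c and Ncapg, and Cdc20 and Ube2c each hold 2 CCAAT words in the window. Over windows of 300 bases (250 before and 50 after the start, both strands), TTTGAA was found in 41 of 59 G2/M promoters (69.5%) and 4 of 44 G1/S promoters (9.09%). Of all 27025 genes with a RefSeq promoter, 18.1% held it. Each gene entered with its first promoter by position. All these genes include ones not tested here, so they are a wider set than the lists, which hold tested genes. TTTGAA and CCAAT occurred together in 36 of the 59 G2/M promoters and 3 of the 44 G1/S promoters (6.82%), beside 7.01% of all. The E2F-like words (TTCCCGC or the variant TTCGCGC, and likewise TTGCCGC or the variant TTGGCGC) showed the opposite split, with at least 1 of them in 27 of 44 G1/S promoters (61.4%), 10 of 59 G2/M promoters (16.9%) and 9.70% of all. None of these words contains another, but TTGGCGC can overlap the reverse of CCAAT. E-boxes (CAGCTG or CAGATG) were found in 22.7% of the G1/S, 22% of the G2/M and 30.6% of all promoters. Among the radial glia genes, which also fell, TTTGAA was found in 2 of 30 promoters (6.67%) and an E2F-like word in 5 (16.7%). These are counts of letters and not of bound sites.

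Cdc20, the activator of the anaphase promoting complex, stood at 1966, 2842 and 2812 in progenitors against 148, 123 and 110 in neurons (log2 change -4.30 ± 0.18, adjusted p = 6.96e-08). Ube2c, the ubiquitin conjugating enzyme of the same complex, stood at 948, 1283 and 1438 against 72, 49 and 50, and Ncapg, a condensin subunit, at 1194, 1816 and 2020 against 72, 37 and 41. In all 3 genes the groups were far apart, and replicate 1 was the lowest progenitor library and the highest neuron library. Mybl2, the B-Myb factor itself, fell 18.6-fold from 1089 ± 103 to 58.7 ± 7.0 (SD, n = 3), and Foxm1 was at 4252, 3964 and 4608 against 376, 113 and 139.

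Replication genes differed in spread, and a choice by smallest adjusted p favours those with closely spaced replicates. Cdc45, a part of the replicative helicase, varied more, at 605, 1344 and 1324 in progenitors and at 61, 95 and 74 in neurons. Uhrf1, which reads hemimethylated DNA and brings Dnmt1 to it, was at 6338, 7453 and 7859 in progenitors and at 268, 210 and 191 in neurons (32.4-fold lower; log2 change -5.02 ± 0.14, adjusted p = 1.46e-08). Mcm2, a subunit of the replicative helicase, was at 7901, 8360 and 8311 against 608, 549 and 569 (14.2-fold lower; log2 change -3.83 ± 0.08, adjusted p = 1.04e-08). Ung, the uracil DNA glycosylase, was at 1298, 1291 and 1433 against 40, 40 and 45. These 3 genes were chosen by adjusted p, which favours values close together within a group and a wide gap between groups. The smallest fall of the list was that of Orc6, an origin recognition subunit, from 909 ± 68 to 556 ± 50 (log2 change -0.71 ± 0.10, adjusted p = 0.00022).

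Cyclins and their inhibitors did not move together. Ccnd1 fell from 4176, 3084 and 2727 to 64, 66 and 64 (log2 change -5.64 ± 0.15, adjusted p = 1.14e-08). Ccnd2 fell less, from 33661, 27341 and 23677 to 4849, 2663 and 2104 (log2 change -3.22 ± 0.32, adjusted p = 1.99e-05), and replicate 1 was the highest library of both groups. Among 24 CDK inhibitors and other genes of cell cycle exit, 11 rose and 8 fell, with a median of 0.34. Over all genes tested, 32.2% rose and 31.1% fell. Cdkn1c, the p57 inhibitor, rose 12-fold from 180, 147 and 127 to 2057, 1528 and 1856. Cdk5r1, the p35 activator that neurons use to switch on Cdk5, rose 26.6-fold from 730, 456 and 404 to 16295, 13176 and 12745. Cdkn2c, the p18 inhibitor, went the other way, from 732, 628 and 611 to 26, 6 and 15, and so did the pocket protein Rbl1, which was 9.69-fold lower in neurons. The inhibitor Cdkn1b, p27, did not pass, at 4482 ± 454 and 3892 ± 384 (log2 change -0.20, adjusted p = 0.131).

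Radial glia genes fell nearly without exception. Of 34 tested, 31 fell and 1 rose, with a median log2 change of -5.06, and together with the untested member they held 1.65% to 1.81% of the total in progenitors and 0.171% to 0.190% in neurons. Notch1, the receptor, was at 26211, 30229 and 28055 against 674, 374 and 308 (62.3-fold lower; log2 change -6.04 ± 0.25, adjusted p = 7.17e-08). Vim and Nes, the intermediate filament proteins of radial glia, were at 38782, 46667 and 36590 against 3554, 3346 and 3177, and at 34854, 24762 and 24703 against 1285, 968 and 858. None of the 3 genes overlapped between groups, although Vim kept a mean of 3359 in neurons. Pax6 fell 22.5-fold, Fabp7, a brain lipid binding protein, 32.4-fold, and Aldoc, an aldolase of radial glia and astrocytes, 178-fold. Hmga2, an architectural chromatin protein of early progenitors, was at 1381, 1038 and 1121 against 6, 7 and 7. Lrrn1, a leucine-rich repeat protein, was the member that rose, from 1204 ± 150 to 2007 ± 315 (log2 change 0.73 ± 0.22, adjusted p = 0.0146), a call that was lost with equal library totals (log2 change 0.44, adjusted p = 0.111). Cdh2 and Fam107a did not pass. Fam107a passed as lower with the replicate block (adjusted p = 0.0411), and Cdh2 with equal library totals (log2 change -0.39, adjusted p = 0.0091).

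**Figure D2:**
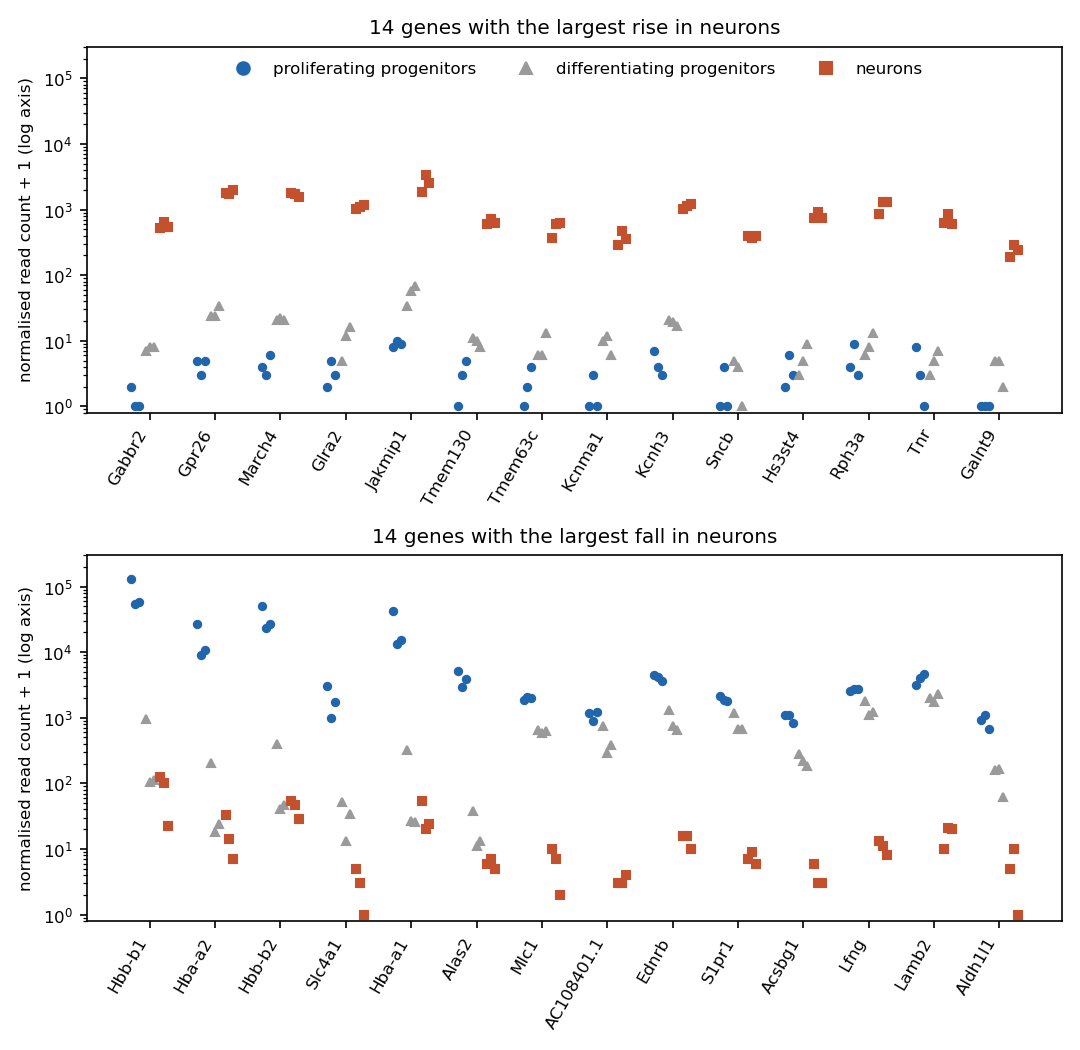
Normalised read count + 1 on a log axis for the 14 genes with the largest rise (top) and the 14 with the largest fall (bottom), a point per library, with differentiating progenitors between. Among the rises, the progenitor points are all below 10 and the neuron points all above 180; among the falls, 6 of 14 are red blood cell genes.

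Of the 14 genes with the largest falls by ratio, 6 were on the red blood cell list. Hbb-b1, Hba-a2, Hbb-b2 and Hba-a1, the adult globins, Slc4a1, the red cell anion exchanger, and Alas2, the first enzyme of haem synthesis in red cells, had log2 changes between -10.14 and -9.37. Hbb-b1, with the largest of them, was at 129264, 53693 and 58676 in progenitors and at 124, 102 and 21 in neurons, so that replicate 1 held more than the other 2 progenitor libraries together. The globin copies are near-identical and their split between gene names is uncertain. The other 8 were Mlc1, AC108401.1, Ednrb, S1pr1, Acsbg1, Lfng, Lamb2 and Aldh1l1. Ednrb, the type B endothelin receptor, was at 4442, 4133 and 3631 against 15, 15 and 9 (313-fold lower), and Mlc1, a membrane protein known from astrocytes, at 1859, 2101 and 1995 against 9, 6 and 1. S1pr1, a sphingosine 1-phosphate receptor also known from endothelium, was at 2142, 1891 and 1814 against 6, 8 and 5. For these 3 genes the progenitor replicates differed little, unlike the globins and Col1a2.

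The 14 genes with the largest rises were all close to 0 in progenitors. Gabbr2, a subunit of the metabotropic GABA receptor, was at 1, 0 and 0 in progenitors and at 522, 647 and 546 in neurons (log2 change 8.82 ± 0.32 on the log2(value + 1) scale, adjusted p = 4.01e-08). Gpr26, an orphan receptor, was at 4, 2 and 4 against 1765, 1717 and 1961, and Glra2, the embryonic glycine receptor subunit, at 1, 4 and 2 against 1029, 1101 and 1178. The rest of the 14 were March4, Jakmip1, Tmem130, Tmem63c, Kcnma1, Kcnh3, Sncb, Hs3st4, Rph3a, Tnr and Galnt9. Kcnma1 and Kcnh3 are potassium channels, Sncb is beta-synuclein, Rph3a binds Rab3 on synaptic vesicles, and Tnr is an extracellular matrix glycoprotein. Galnt9 was listed at 0 in all 3 progenitor libraries and at 190, 287 and 240 in neurons. With progenitor values this low the size of the log2 change depends on the 1 added before taking logs.

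By the difference of group means, before any correction for gene length, cytoskeletal and adhesion genes of the axon led. Cntn2, the axonal adhesion molecule TAG-1, was at 1007, 345 and 219 in progenitors and at 103246, 99412 and 98492 in neurons (192-fold higher; log2 change 7.88 ± 0.46, adjusted p = 5.1e-07). Its neuron values lay close together, and progenitor replicate 1 was well above the other progenitor libraries. Mtap1b, a microtubule-associated protein of growing axons, was at 47511, 37178 and 32031 against 128242, 103983 and 92528 (2.78-fold higher). Tuba1a, Tubb2b, the kinesin Kif21b and the doublecortin gene Dcx completed the 6 largest, and Dcx was at 1944, 778 and 499 against 59043, 47575 and 47049. Replicate 1 was the highest progenitor library for 5 of the 6 genes, the exception being Tubb2b.

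Genes of neurons in general rose in 35 of 37 cases and fell in 0, with a median log2 change of 4.45. They held 0.433% to 0.596% of the total in progenitors and 3.24% to 3.61% in neurons. The smallest adjusted p-values were those of Bhlhe22, Syt1, Celf4 and Mtap2. Bhlhe22, a transcription factor of projection neurons, was at 83, 75 and 68 against 4947, 4954 and 4689 (64.6-fold higher; log2 change 6.00 ± 0.11, adjusted p = 1.04e-08). Nrcam and Dpysl4 did not pass (log2 changes 0.18 and 0.23), and both rose with the replicate block. Tubulins, motors and their partners rose in 35 of 45 cases and fell in 8 (median 1.52), and their share of the total went from 1.30% to 1.49% in progenitors to 3.58% to 4.04% in neurons. Kif5a, a kinesin of axonal transport, was at 597, 574 and 587 against 12747, 14666 and 13659, and Mapt, the tau gene, at 280, 177 and 121 against 21134, 23428 and 21603. The kinesins that fell were Kif11 and Kif20b, which act in cell division, and Kif21a. Kif11 was at 4069, 5410 and 5794 against 247, 114 and 119, whereas Kif21a fell only 1.65-fold, from 8123 ± 986 to 4931 ± 608.

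Synaptic genes rose in 55 of 61 cases and fell in 3 with a median of 3.40. Gria1, an AMPA receptor subunit, was at 33, 28 and 29 in progenitors and at 4406, 5022 and 4828 in neurons (158-fold higher; log2 change 7.26 ± 0.18, adjusted p = 1.14e-08). Syt1, the calcium sensor of vesicle release, was at 33, 31 and 23 against 2910, 3047 and 2834, and Sv2a, a vesicle protein, at 241, 260 and 278 against 4810, 5043 and 4658. Replicates lay close together on both sides, which the choice of these genes by adjusted p favours. The members that fell were Camk2a, Syt11 and Vamp1. Camk2a, a kinase of mature excitatory synapses, fell from 1433, 1424 and 1335 to 289, 235 and 257 (5.37-fold; log2 change -2.42 ± 0.13, adjusted p = 2.45e-07), opposite to Camk2b, which was 7.55 higher on the log2 scale.

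Ion channel and pump genes rose in 43 of 51 cases and fell in 5, with a median of 3.44. Cacna1e, an R-type calcium channel subunit, was at 75, 90 and 97 against 6370, 8225 and 7644 (84.9-fold higher; log2 change 6.39 ± 0.15, adjusted p = 1.11e-08). Kcna1, a delayed rectifier, was at 14, 9 and 7 against 2751, 2062 and 2125. In both genes every neuron library lay far above every progenitor library, which the choice by adjusted p favours. Kcnj10 and the calcium channel subunit Cacnb2 were among the falls. Kcnj10, the inward rectifier of glia, was at 1969, 1834 and 1337 against 27, 13 and 8.

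Axon guidance genes rose in 37 of 51 cases and fell in 11 (median 1.87). Sema4g and Sema7a, semaphorins, were at 768, 740 and 791 against 7595, 7451 and 6996, and at 448, 442 and 397 against 3834, 3762 and 3608. Unc5a, a netrin receptor, was at 118, 103 and 94 against 1787, 1986 and 2149, and the ephrin Efna3 at 29, 26 and 23 against 1367, 1077 and 991. Sema5a, a semaphorin, was the clearest of the falls, and was at 17067, 14799 and 13106 in progenitors and at 1246, 825 and 777 in neurons (15.8-fold lower; log2 change -4.00 ± 0.18, adjusted p = 1.07e-07). The ephrin Efnb1 fell 3.76-fold. Each of these genes was separate between the groups in all libraries, which the choice by adjusted p favours.

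Markers of several neuron classes were present in the neuron libraries. Deep-layer genes rose in 14 of 16 cases and fell in 2 (median 2.61). Bcl11b, the CTIP2 factor of corticospinal neurons, was at 948, 509 and 463 against 23554, 18155 and 17438 (30.8-fold higher), and Sox5, a factor of corticofugal neurons, at 1893, 1646 and 1358 against 18314, 18453 and 18688. The members that fell were Nr4a2, from 1780 ± 260 to 334.7 ± 18.8, and Etv1, from 469 ± 73.8 to 94.3 ± 21.1. Upper-layer genes were mixed, with 9 of 16 higher and 5 lower (median 1.69), beside 32.2% and 31.1% of all genes tested. Falls were thus about as frequent as over all genes. Plxnd1, a semaphorin receptor, rose 23.7-fold from 152, 207 and 282 to 5054, 4547 and 5588, while Pou3f2, Pou3f3, Cux1, Lhx2 and Dok5 fell. Several of these 5, such as Lhx2 and the Pou3f factors, are also known from progenitors.

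Interneuron genes rose in 18 of 22 cases and fell in 2 (median 4.11), although the ganglionic eminences had been removed. Sst, somatostatin, was at 3, 3 and 1 in progenitors and at 535, 413 and 691 in neurons (log2 change 7.40 ± 0.37, adjusted p = 2.11e-07). Erbb4, the neuregulin receptor of migrating interneurons, was at 46, 19 and 18 against 1541, 2146 and 2055. The groups did not overlap for either gene. Lhx8 and Nkx2-1, markers of ventral progenitors, lay under the filter, with means of at most 3 in either group. Other members of the list were measured in progenitors too. Gsx2 was at 114, 49 and 7 in progenitors against 15, 6 and 2 in neurons and did not pass. Dlx2 was at 356, 71 and 24 against 1174, 669 and 558. Both genes were highest in replicate 1 of each group. The interneuron genes held 0.0834% to 0.0900% of the total in neurons and 0.0275% to 0.0353% in progenitors. In bulk samples, more cells of a type and more RNA per cell cannot be told apart.

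Cajal-Retzius genes rose in 13 of 14 cases and fell in 0 (median 3.57). Reln, the secreted signal of these cells, was at 90, 103 and 63 against 15817, 18933 and 16829 (201-fold higher; log2 change 7.66 ± 0.21, adjusted p = 1.46e-08). Trp73, p73, was at 26, 8 and 12 against 986, 884 and 839, and Lhx1 at 1, 0 and 1 against 216, 158 and 154. All 3 genes were separate between groups in every library. Intermediate progenitor genes divided, with 12 of 24 higher and 9 lower (median 0.37), beside 32.2% and 31.1% of all genes tested. Neurod1 rose 26.6-fold, from 201, 93 and 68 to 4251, 2730 and 2644, while Neurog1 fell from 414, 260 and 263 to 9, 6 and 2 and Neurog2 from 6422 ± 897 to 952 ± 144. Their share of the total was 0.255% to 0.299% in progenitors and 0.209% to 0.263% in neurons, against 0.647% to 0.785% in differentiating progenitors. Of 7 oligodendrocyte lineage genes tested, 4 fell and 1, Mbp, rose, a call lost with equal library totals (log2 change 0.34, adjusted p = 0.0949). Olig1 was at 22, 22 and 11 against 0 in all 3 neuron libraries.

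In the Notch pathway, 18 of 34 genes fell and 8 rose (median -0.67), beside 31.1% and 32.2% of all genes tested. Among the falls, Notch2, a receptor, was at 16739, 19327 and 18526 against 515, 544 and 514, Hes1, a repressor and Notch target, at 1713, 1935 and 2284 against 14, 14 and 12, and Lfng, which glycosylates Notch, at 2595, 2770 and 2744 against 12, 10 and 7. Dner, a non-canonical ligand, and Dtx1, a ubiquitin ligase, rose 10.1-fold and 12.2-fold, Dner from 342, 360 and 302 to 3190, 3540 and 3431. Dll1, a canonical ligand, did not pass, at 3499 ± 78.1 and 3874 ± 550. Thus the receptors Notch1, Notch2, Notch3 and Notch4 were all lower in neurons, while of the ligands Jag1 fell 3.71-fold and Jag2 rose 5.33-fold.

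In FGF and Hedgehog signalling, all 29 genes passed, 22 lower and 7 higher (median -2.32). Gli3, the main Gli repressor of the cortex, was at 14141, 14414 and 12888 against 363, 259 and 311 (44.4-fold lower; log2 change -5.48 ± 0.16, adjusted p = 1.62e-08). Fgfr3 was at 11272, 13858 and 15366 against 916, 876 and 920, and Smo, the Hedgehog signal transducer, at 3964, 4225 and 4437 against 533, 451 and 479. The rises were of genes low in progenitors, such as Fgf18, at 3, 3 and 2 against 92, 78 and 81, and Dusp6, an ERK phosphatase, at 80, 83 and 189 against 600, 789 and 710.

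Wnt genes fell in 24 of 42 cases and rose in 10 (median -0.83), beside 31.1% and 32.2% of all genes tested. Fzd8, a receptor, was at 5603, 4907 and 5462 against 255, 224 and 212, and the nuclear factors Tcf7l1 and Tcf7l2 fell 56.2-fold and 29.4-fold. Wnt7b, a ligand, was at 759, 462 and 477 against 11968, 9254 and 9643 (18.2-fold higher; log2 change 4.21 ± 0.18, adjusted p = 9.27e-08), and Rspo3, a secreted enhancer of Wnt signalling, at 22, 36 and 21 against 980, 1095 and 1005. Wnt7a, the close relative of Wnt7b, fell from 2228 ± 139 to 481 ± 59.1. For all 3 of these secreted proteins the groups did not overlap.

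The Hippo, polarity and matrix list fell in 35 of 41 cases and rose in 2 (median -2.38). Wwtr1, the TAZ coactivator, was at 3055, 3323 and 2616 against 24, 22 and 22 (132-fold lower; log2 change -6.98 ± 0.18, adjusted p = 1.14e-08). Crb2, an apical polarity protein, was at 3573, 3521 and 4011 against 54, 42 and 42, and Ctnna1, the alpha-catenin of adherens junctions, at 6634, 7769 and 6546 against 791, 717 and 712. Some matrix members that fell climbed across the progenitor replicates, as Col1a2 did. Col4a1 was at 410, 1094 and 2572 and Nid1 at 101, 261 and 428, unlike Lamc1, at 2462, 3038 and 2807. The part of cells outside the neural lineage in these falls was not tested. The members that rose were Lamb1, a laminin chain, from 132, 271 and 430 to 1828, 2242 and 2189, and Mllt4, afadin, 1.53-fold. Cilium and centrosome genes fell in 16 of 30 cases and rose in 5 (median -0.41), or in 3 with equal library totals. Over all genes tested, 31.1% fell and 32.2% rose. Those that fell included Stil and Plk4, which duplicate centrioles, and Nin, ninein, rose from 1068, 1174 and 1009 to 5425, 7682 and 7045.

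**Figure D3:**
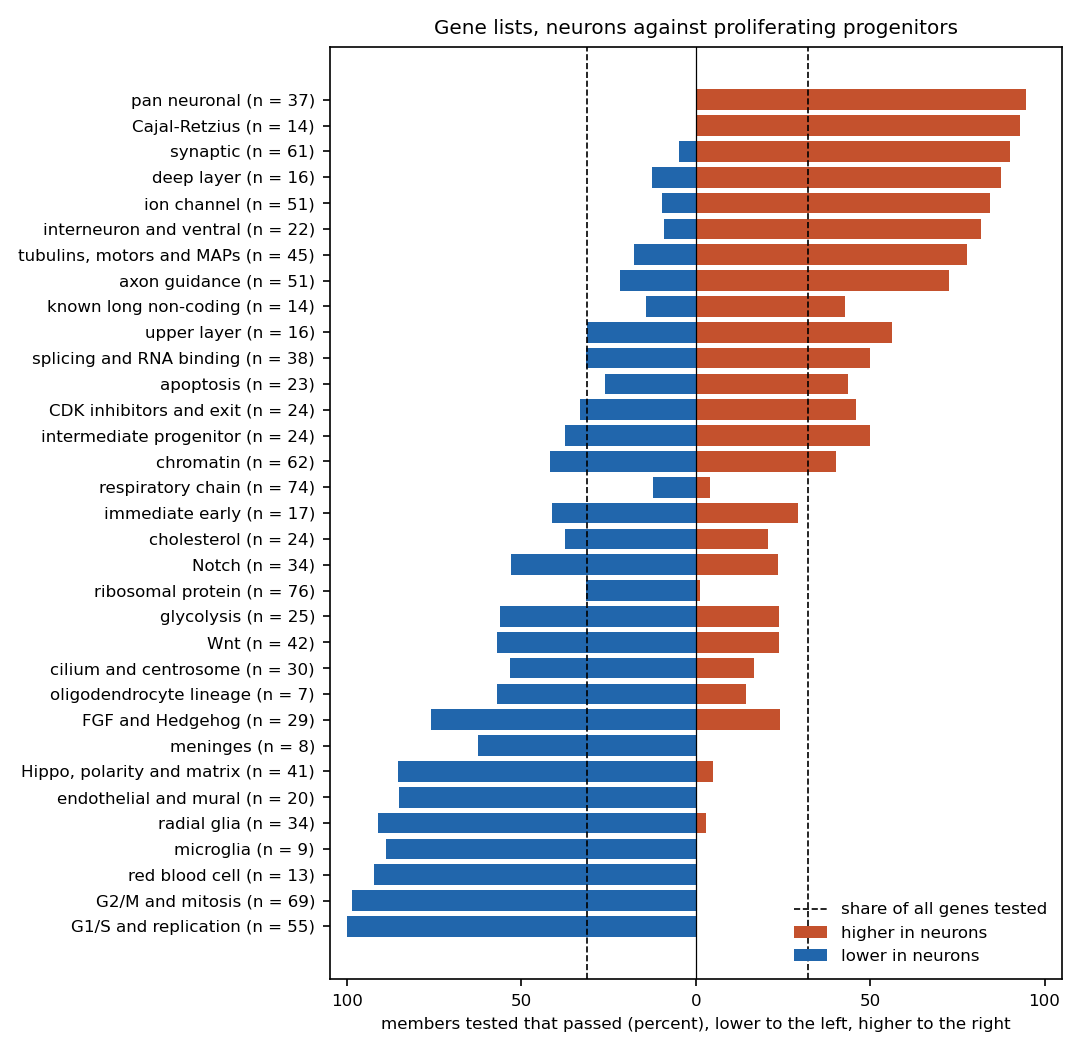
For each gene list, the percent of its tested members that rose in neurons (to the right) and fell (to the left); dashed lines mark 32.2% and 31.1%, the shares over all 15828 genes tested. Pan-neuronal and Cajal-Retzius genes stand at the top and the cell cycle lists, where 55 of 55 and 68 of 69 members fell, at the bottom.

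Pairs of related genes were examined as log2 ratios of values per kilobase of gene length, a description without a test because an exact permutation test of 3 against 3 cannot go below 0.10. The ratio of the second gene to the first was higher in every neuron library than in every progenitor library for 18 of 18 pairs, which had been put together for known differences between progenitors and neurons. In 11 pairs the sign of the ratio turned. In 11 pairs the first gene fell and the second rose, in 3 both rose and in 1 both fell.

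Intermediate filaments gave the widest swing of the pairs shown. The log2 ratio of Ina, alpha-internexin, to Vim was -8.87, -9.81 and -10.11 in progenitors and 1.44, 1.47 and 1.48 in neurons. Per kilobase, Ina went from 23.7 to 3959 and Vim from 17420 to 1439. For enolase, Eno2 to Eno1, the ratio went from -4.52 ± 0.21 to -0.03 ± 0.18 (SD, n = 3), and for hexokinase, Hk1 to Hk2, from -2.14 ± 0.10 to 1.76 ± 0.27. Tuba1a and Tuba1b are near-identical in sequence, so their ratio of 2.06 ± 0.32 in progenitors and 6.75 ± 0.06 in neurons is uncertain.

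Subunits of the BAF chromatin remodelling complex, which are known to be exchanged when progenitors become neurons, showed the exchange in 3 pairs. Actl6b to Actl6a went from -6.39 ± 1.05 to 1.84 ± 0.10 (SD, n = 3), Dpf1 to Phf10 from -1.32, -1.30 and -1.29 to 2.26, 2.33 and 2.23, and Ss18l1 to Ss18 from -1.37, -1.40 and -1.27 to 2.04, 2.03 and 2.19. The neuronal members rose more than the progenitor members fell: Actl6b rose from 18.3 ± 8.5 to 3083 ± 897, whereas Actl6a fell only 1.84-fold (log2 change -0.87 ± 0.29, adjusted p = 0.0253). The call of Actl6a was lost without progenitor replicate 2 (adjusted p = 0.0893), progenitor replicate 3 (0.0858) or neuron replicate 1 (0.0817).

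In 3 pairs only a single gene passed, and in others a call was lost when a library was left out. Ptbp1, a splicing repressor, fell from 9170 ± 413 to 2902 ± 318 (3.16-fold), while Ptbp2, its neuronal relative, was at 5957 ± 294 and 5883 ± 560 (log2 change -0.02 ± 0.11, adjusted p = 0.89). Ptbp2 passed as lower when library totals were set equal (log2 change -0.31, adjusted p = 0.0274). Ezh1 rose 2.59-fold and Ezh2, at 5269 ± 661 and 4443 ± 524, did not pass (adjusted p = 0.148) but was called lower with the replicate block (log2 change -0.25, adjusted p = 0.000325), with equal library totals (log2 change -0.53, adjusted p = 0.00431), with quantile normalisation and with replicates 2 and 3 alone. Ldhb, at 2391 ± 361 and 2861 ± 171, passed with the block (log2 change 0.27, adjusted p = 0.0157), whereas Ldha fell 2.74-fold. Cdk5 rose 2.26-fold (adjusted p = 0.0323) and did not pass without progenitor replicate 1 (0.104), progenitor replicate 2 (0.0527), neuron replicate 2 (0.104) or neuron replicate 3 (0.104). Slc12a5, the chloride exporter KCC2, rose 1.61-fold (adjusted p = 0.02) and did not pass without progenitor replicate 1 (0.0598), progenitor replicate 2 (0.0673), neuron replicate 2 (0.0802) or neuron replicate 3 (0.0665).

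**Figure D4:**
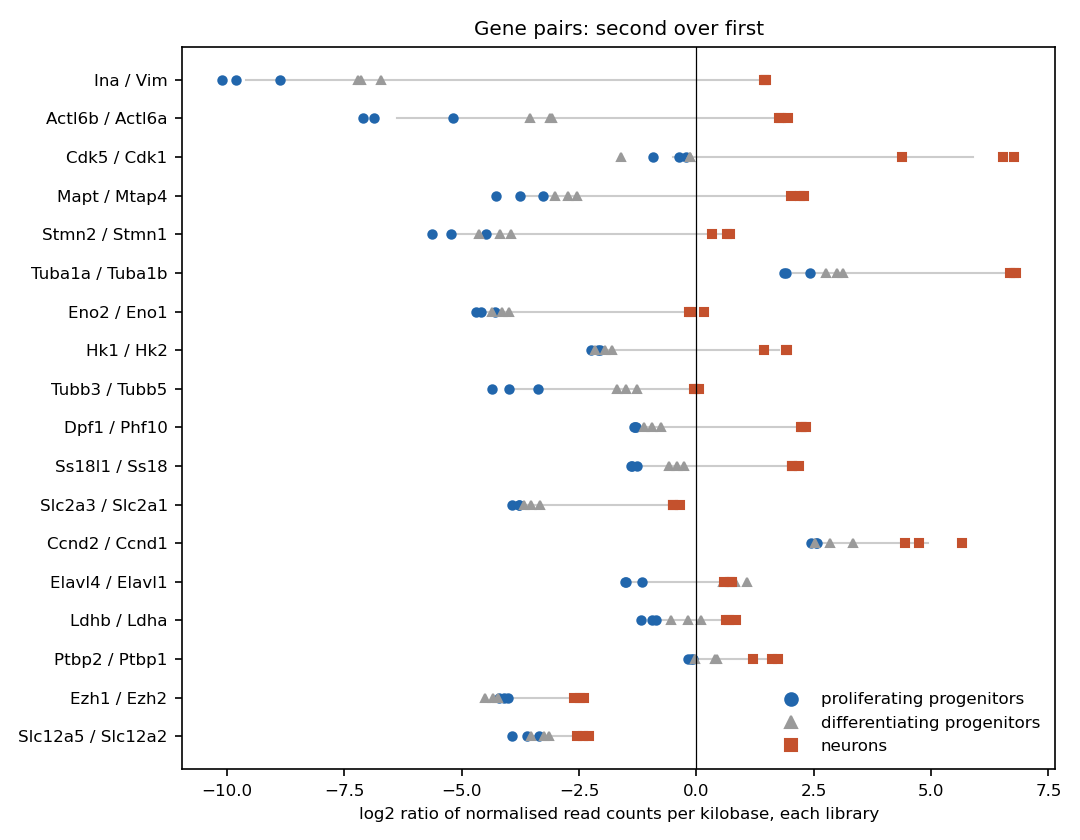
Log2 ratio of the second gene to the first gene of each of 18 pairs, per kilobase of gene length, a point per library, with grey lines joining the means of proliferating progenitors and neurons. All neuron points lie to the right of all progenitor points within each pair, and in 11 pairs the means lie on opposite sides of 0.

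RNA-binding and splicing genes rose in 19 of 38 cases and fell in 12 (median 0.36), where 32.2% of all genes tested rose and 31.1% fell. Celf5 was at 528, 457 and 529 against 9771, 9557 and 9338 (18.9-fold higher; log2 change 4.24 ± 0.10, adjusted p = 1.11e-08), and Rbfox2, a splicing regulator, at 2817, 2513 and 2362 against 22986, 23585 and 22274. The falls included Qk, quaking, at 13695, 14167 and 11875 against 2072, 1997 and 1908 for the higher of its 2 entries in the table, and Msi2, a Musashi protein of progenitors, 2.44-fold. Lin28b, a blocker of let-7 maturation known from early progenitors, was higher in neurons, at 26, 6 and 11 against 293, 178 and 233 (log2 change 4.14 ± 0.48, adjusted p = 4.96e-05); it is named after its values were seen.

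Chromatin genes were divided about equally, with 25 of 62 higher and 26 lower (median -0.07), beside 32.2% and 31.1% of all genes tested. Dnmt3a, a de novo DNA methyltransferase, was at 7679, 7803 and 7648 against 2346, 2181 and 2381 (3.35-fold lower; log2 change -1.74 ± 0.10, adjusted p = 3.3e-07). Chd7, a remodeller, fell 3.61-fold, and Chd5, a remodeller of the same family, rose 6.93-fold from 328, 349 and 379 to 2157, 2715 and 2447. These 2 relatives moved in opposite directions, and the groups did not overlap for either.

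Glycolysis genes passed in most cases and respiratory chain genes in few. Glycolysis genes fell in 14 of 25 cases and rose in 6 (median -0.80), beside 31.1% and 32.2% of all genes tested. The glucose transporter Slc2a1 fell from 1834, 1943 and 1876 to 569, 573 and 547, and Slc2a3, the neuronal transporter, rose from 335.7 ± 22.5 to 1052 ± 78.2. Pfkp, the platelet-type phosphofructokinase, rose 20.6-fold from 132, 156 and 165 to 2656, 3464 and 3190. Respiratory chain genes mostly did not pass, with 3 of 74 higher and 9 lower (median 0.04, and -0.25 with equal library totals). With the replicate block, 16 were higher and 17 lower, and the number higher ranged from 1 to 6 when a library was left out. The largest of these changes were below 2-fold; Sdhd, a subunit of succinate dehydrogenase, fell 1.53-fold.

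Cytoplasmic ribosomal protein genes fell in 24 of 76 cases and rose in 1 (median -0.34). Their share of falls, 31.6%, was close to the 31.1% over all genes tested, and their share of rises, 1.32%, was below the 32.2%. With the replicate block 50 fell, where 39.5% of all genes fell. Their share of the total was 0.934%, 1.16% and 1.00% in progenitors 1, 2 and 3 and 0.556%, 0.715% and 0.672% in neurons 1, 2 and 3, so replicate 1 was the lowest library of each group, while it had the most pseudogene reads. The part of pseudogene reads in these values was not tested. Rpl12 fell from 798, 714 and 848 to 438, 393 and 391, and Rpl15, the member that rose, was at 922 ± 62.2 and 1161 ± 49.6. Cholesterol synthesis genes fell in 9 of 24 cases and rose in 5 (median -0.17). Srebf1, a regulator of lipid synthesis, fell 3.77-fold and Fdft1, squalene synthase, rose 2.07-fold. With equal library totals 2 rose and 15 fell, and without neuron replicate 3 the number that rose was 3.

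Genes of apoptosis rose in 10 of 23 cases and fell in 6 (median 0.30, and -0.03 with equal library totals), where 32.2% of all genes tested rose and 31.1% fell. Bbc3, the PUMA activator of cell death, was at 90, 59 and 76 against 307, 263 and 274 (3.75-fold higher), whereas Casp8, the caspase of death receptors, was at 111, 104 and 116 against 0, 1 and 3. Immediate early genes rose in 5 of 17 cases and fell in 7 (median -0.29), beside the same 32.2% and 31.1% over all genes tested. Jun fell 5.27-fold, from 12291, 11290 and 12452 to 2435, 2439 and 1960, and Junb rose 9.38-fold, from 51, 30 and 28 to 416, 332 and 274. Fos, Egr1, Ier2, Jund and Nr4a1 did not pass, and of these Ier2 (adjusted p = 0.00597) and Nr4a1 (0.0265) passed with the replicate block.

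Long non-coding genes fell more often than they rose. Of 800 tested, 310 fell (38.8%) and 180 rose (22.5%), beside 32.3% and 35.6% of 13388 protein-coding genes; the difference between the gene types was not tested. Meg3, an imprinted transcript, was at 1025, 625 and 936 in progenitors and at 13617, 14410 and 14399 in neurons (16.4-fold higher; log2 change 4.07 ± 0.18, adjusted p = 9.5e-08). H19, another imprinted transcript, was at 1570, 1038 and 919 against 89, 43 and 71 (17.4-fold lower). The 3 largest rises were of 2900079G21Rik, at 1, 0 and 1 against 287, 232 and 233, Gm15857, at 0 in all progenitor libraries against 83, 79 and 88, and Gm14204, at 29, 5 and 3 against 798, 804 and 630. RP24-273I13.1, C030005K06Rik and BC006965 had the largest falls, and C030005K06Rik was at 121, 88 and 66 against 1, 0 and 0. Of 14 known long non-coding RNAs tested, 6 rose and 2 fell, or 4 with the block or with equal library totals. Dlx6os1 rose from 90, 12 and 2 to 1567, 1178 and 883. It is antisense to Dlx6, and no source used here gives the strand setting of the counting, so reads of the 2 genes cannot be told apart.

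The third population lay nearer to the progenitors for most of these genes. For each gene, the mean log2 value of differentiating progenitors was placed on the way from proliferating progenitors (0%) to neurons (100%), as a description, since the same 2 groups chose the genes. Among genes that rose at least 8-fold, the median position was 28.0% (quartiles 10.1% and 47.2%), and 774 of 1000 lay under 50%. Among genes that fell at least 8-fold it was 17.4% (quartiles 5.39% and 29.4%), and 1017 of 1114 lay under 50%. Counting members called with at least 2-fold change, G2/M genes had a median of -5.29%, G1/S genes 11.6%, synaptic genes 17.3%, radial glia genes 21.1%, pan-neuronal genes 36.1%, axon guidance genes 46.7% and Cajal-Retzius genes 61%. Syt1 was thus at 67, 77 and 61 in differentiating progenitors, close to its progenitor level, whereas Dcx was at 13118, 15730 and 13285.

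Longer genes rose more often than short ones. In the shortest decile of the genes tested, with a median length of 582 bases, 10.5% rose and 21.1% fell. In the longest decile, with a median length of 9724 bases, 48.1% rose and 27.3% fell. The share that rose increased at each step between, and the share that fell stayed between 30.4% and 34.0% from the second to the ninth decile. Levels increased with length, from a median value of 42 in the shortest decile to 1733 in the longest, and by decile of level the share that rose went from 19.2% to 50.5% and the share that fell from 33.0% to 21.9%. The parts of length and level were not separated.

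**Figure D5:**
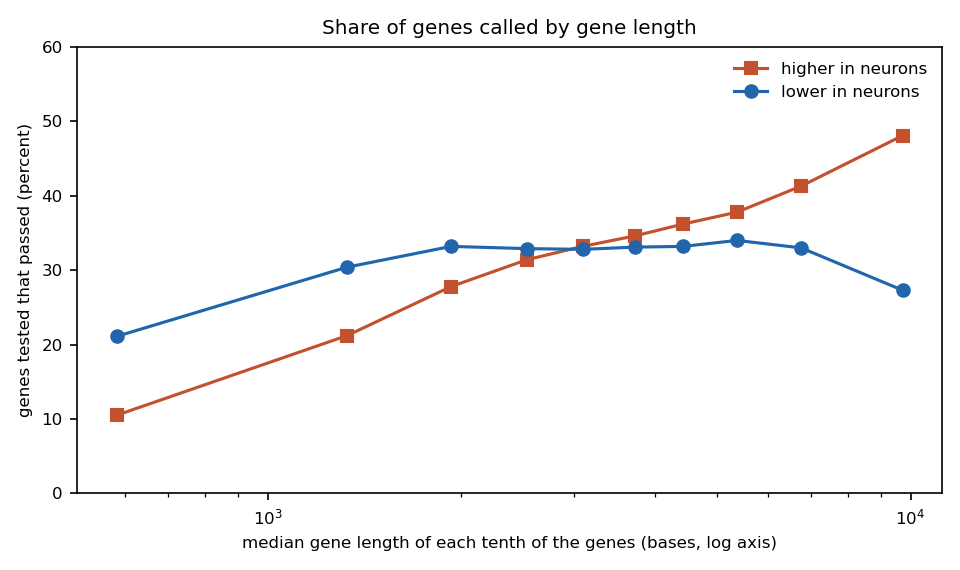
Percent of genes that rose (squares) and fell (circles) in neurons by decile of gene length, at the median length of each decile in bases on a log axis. The share that rose goes from 10.5% to 48.1%, and the share that fell from 21.1% to 27.3% with its highest value of 34.0% in the eighth decile.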

How the data were processed

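RNA was measured in 9 libraries of sorted mouse cortical cells, 3 a group. The authors deposited normalised read counts per gene rounded to whole numbers, so the values were handled as a score and not as raw counts. The tools, per the submitters' processing notes, included DESeq 1.8.1, bedtools 2.11, CASAVA 1.8.0 and BWA, with mm9 as the build; per the file headers, genes are those of Ensembl version 61. Per the labels' protocols, poly-A RNA went into strand-specific libraries; no source used here says how strand entered the counting. The depth is unknown apart from an estimate from the spacing of the values, and no interval was drawn from it.

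Values were tested as log2(value + 1) with limma 3.58.1 (R 4.3.3), with an intensity trend, over genes at 10 or more in at least 3 libraries. All 9 libraries entered a fit of 3 group means (6 residual degrees of freedom), with the contrast neurons minus proliferating progenitors, Benjamini-Hochberg adjustment over 15828 genes and a threshold of 0.05. Data were simulated for this comparison with 200 of 15828 genes changed. In them, 26.3% of 1.5-fold, 41.2% of 2-fold and 78.8% of 4-fold changes were recovered, with 4.66% false calls. In the measured data 63.3% of genes were called, a far larger share than was changed in the simulation. The Benjamini-Hochberg cutoff depends on that share, so these rates do not describe the measured comparison. Gene types came from GENCODE M21 (93.8% matched by identifier). Python 3.11.15 with pandas 2.3.3 and matplotlib 3.10.9 made the tables and plots.

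Replicate numbers were checked for pairing: deviations from the group means correlated at 0.507 to 0.767 for all 9 same-numbered pairs. The highest, 0.744 to 0.767, were those of replicate 1, which stood apart from the others. Differently numbered pairs of replicates 2 and 3 were at 0.272 to 0.428, and those with replicate 1 at -0.64 to -0.545. Same-numbered libraries thus varied together, and whether they share embryos or only a batch was not tested. Results with the replicate block stand beside the calls they change. The pairing comes from these correlations, as the labels give the numbers without their origin.

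Genes named were the sort genes, the 14 largest rises and falls among called, non-overlapping genes whose higher mean was at least 100, the 6 largest changes of the mean each way, 3 long non-coding genes each way with a higher mean of at least 50, up to 4 members a list and direction by adjusted p, and both genes of each pair. Choice by adjusted p or by non-overlap favours close replicates and separate groups, so these traits of the genes so chosen are no findings. Other genes were named after their values were seen, to complete a count or as known members of a list. The members, lists and pairs were chosen with earlier results of these data known. Alternatives covered scaling, pseudocount, filter, trend, samples, block and leaving out libraries. The authors' fold change and p-value columns were not used. Some members counted in the lists are not reported here by name.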

Additional observations from a re-analysis of the deposited data

How the results depend on the processing

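The counts of 5099 genes higher and 4924 lower stayed within 1.5 times under every alternative run. Leaving out each of the 9 libraries gave 4633 to 5190 higher, 4507 to 5026 lower and 9178 to 10216 either way. With the replicate block, 6129 genes were higher and 6245 lower. Fitting only the 6 libraries compared gave 5008 and 4815, quantile normalisation 4761 and 5118, no filter 5401 and 5554, and a stricter filter of 50 gave 4559 and 4060. Equal library totals turned 1 named gene, the cilium gene Bbs1, from a log2 change of 0.28 (adjusted p = 0.0128) to -0.013 (adjusted p = 0.902). Of 267 named genes tested, 249 kept direction and side of the threshold in all alternatives that gave a value. Beyond the shifts given with the results, the block changed the count of ribosomal protein, respiratory chain and long non-coding lists by over 1.5 times and no other list's. Without a filter, 14 microglial and 8 meningeal genes fell; at 50, 2 microglial and 9 endothelial genes fell and 4 FGF and Hedgehog genes rose, where fewer genes were tested. Quantile normalisation gave 14 falls among cholesterol genes. edgeR and DESeq2 were not run, since the values are not raw counts. The median standard error of a log2 change was 0.18, and genes near 0 have changes whose size rests on the pseudocount.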
